A study of Caenorhabditis elegans with 30 samples.

Results

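The proteasome subunit genes of Caenorhabditis elegans were described across 6 groups of whole-worm RNA sequencing libraries, 5 libraries in each. Members were all genes of the deposited count table whose WormBase symbol starts with pas-, pbs-, rpt- or rpn- and whose mean raw count over the 30 libraries was at least 1. This gave 33 of 46739 genes in the table, and of the 16934 genes with a mean count of at least 1 that were tested. All 33 genes with such a symbol passed this minimum, and the lowest mean count among them was 332. The groups were swsn-9(ok1354) mutants, strain RA503, after 18 h on 400 mM ethanol, and the same strain after 18 h on 0 mM ethanol. A further pair was wild-type N2 worms given 400 or 0 mM for 18 h and then kept off ethanol for 6 h. The last pair was N2 worms given 400 or 0 mM and harvested immediately, as the mutants were. All animals were hermaphrodites placed on plates at the L4 stage and collected as adults of the first day. swsn-9 encodes an accessory subunit of the SWI/SNF chromatin remodeling complex, and the study asked which transcripts follow prolonged ethanol exposure, whether they return 6 h later, and how the mutants differ. Each library came from a pool of whole worms, and the mutant strain carries 1 allele.

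The 26S proteasome degrades proteins that carry ubiquitin chains. Its 20S core is a barrel of alpha rings, which gate the entrance, around beta rings, whose beta 1, 2 and 5 subunits carry the peptidase sites. The 19S particle caps the core. Its base holds the ATPases that unfold substrates together with scaffolds and ubiquitin receptors, and its lid holds the subunit that removes ubiquitin. In C. elegans the proteasome genes are targets of SKN-1A, a form of the transcription factor SKN-1 that reaches the nucleus when proteasome function falls.

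Of the 33 genes, 7 encode alpha subunits (pas-1 to pas-7), 7 encode beta subunits (pbs-1 to pbs-7) and 6 encode ATPases of the base (rpt-1 to rpt-6). A further 4 encode other base subunits, namely the scaffolds rpn-1 and rpn-2 and the ubiquitin receptors rpn-10 and rpn-13. The remaining 9 encode lid subunits, with rpn-6.1 and rpn-6.2 as a pair of paralogs. They lie on 5 chromosomes, with 10 genes on chromosome I, 7 on II, 8 on III, 3 on IV and 5 on V (assembly WBcel235, Ensembl annotation). Levels are CPM, counts per megaread with library sizes scaled by TMM, and levels of different genes are compared only as CPM per kb of exon.

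Per kb, 32 of the 33 genes lay within a narrow range near the top of the transcriptome. The mean over 30 libraries was highest for pas-3, an alpha subunit, at 337 CPM per kb, and next for pbs-1, the beta 1 subunit, at 334. The lowest of the 32 was rpn-13, a ubiquitin receptor, at 133 CPM per kb, which is the 95.1 percentile of all genes with a length. The median of all genes was 3.81 CPM per kb. The median was 258 CPM per kb over the alpha subunits, 242 over the beta subunits, 214 over the ATPases, 155 over the other base subunits and 182 over the lid without rpn-6.2. Core subunits, which occur in equal copies within the particle, thus spanned 202 (pbs-3) to 337 CPM per kb. The exception was rpn-6.2, at 13.04 CPM per kb or the 64.2 percentile, against 152 CPM per kb for its paralog rpn-6.1. Reads that fit both paralogs were not counted, and how many were lost was not tested.

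**Figure D1:**
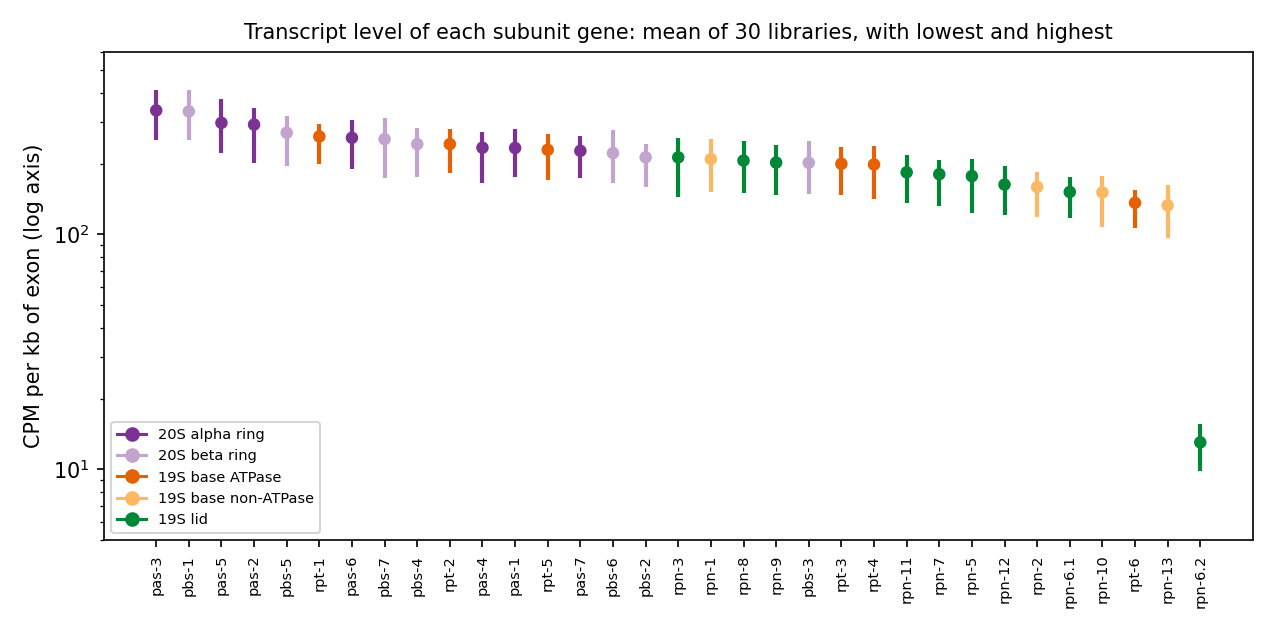
Mean CPM per kb of exon (log axis) of the 33 subunit genes over all 30 libraries, in falling order, with lines from the lowest to the highest library and colors for the part of the proteasome. All genes lie between 133 and 337 CPM per kb except rpn-6.2, at 13.04 CPM per kb.

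Library totals ran from 11812827 to 23505210 counted reads, and the counting error of the median member was between 1.32% and 1.81% of its count in every library. Spread between replicates was larger, with a median coefficient of variation over members of 4.24% and 7.32% in mutants at 400 and 0 mM, 3.13% and 2.51% in N2 at 6 h, and 5.62% and 3.68% in N2 immediately after exposure. swsn-9 itself had 57.6 to 63.7 CPM in mutants at 400 mM and 52.3 to 65.5 CPM at 0 mM, against 181 to 215 CPM in the 20 N2 libraries. Its remaining reads in the mutants were not examined by exon. TMM factors were 1.02 to 1.15 in mutant libraries and 0.914 to 1.01 in N2 libraries, except replicate 1 of N2 at 400 mM and 6 h, at 0.798. Markers of sperm, oocytes, germ line, intestine, muscle, neurons and epidermis were detected in all groups, except that 1 of 4 epidermal markers was at 0 in N2 at 0 mM and 6 h. The wild-type and mutant libraries are not stated to share collection days, so strain and day cannot be told apart. The same holds for N2 at 6 h and N2 harvested immediately, where time and day cannot be told apart.

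Summed over the 33 genes, transcripts were lowest in ethanol-exposed mutants. The sum was 6590.1, 6939.6, 7274, 6745 and 6748 CPM in replicates 1 to 5 of mutants at 400 mM and 8202, 8421, 8549, 7659 and 7189 CPM in mutants at 0 mM. In N2 at 6 h it was 9068, 9143, 8968, 9352 and 8848 CPM at 400 mM and 10075, 9922, 9959.8, 10138 and 10021 CPM at 0 mM. Immediately after exposure, N2 had 9144, 9198, 9747, 10134 and 10075 CPM at 400 mM and 9481, 9619, 10037, 9398 and 9468 CPM at 0 mM. By medians, the order from low to high was mutants at 400 mM, mutants at 0 mM, N2 at 400 mM and 6 h, N2 at 0 mM, N2 at 400 mM, and N2 at 0 mM and 6 h. All mutant libraries lay below all N2 libraries. Mutants at 400 mM overlapped mutants at 0 mM, because replicate 5 at 0 mM was at 7189 and replicate 3 at 400 mM at 7274 CPM. The 2 groups of N2 at 6 h did not overlap, and those harvested immediately did. These sums are a description, with no test.

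**Figure D2:**
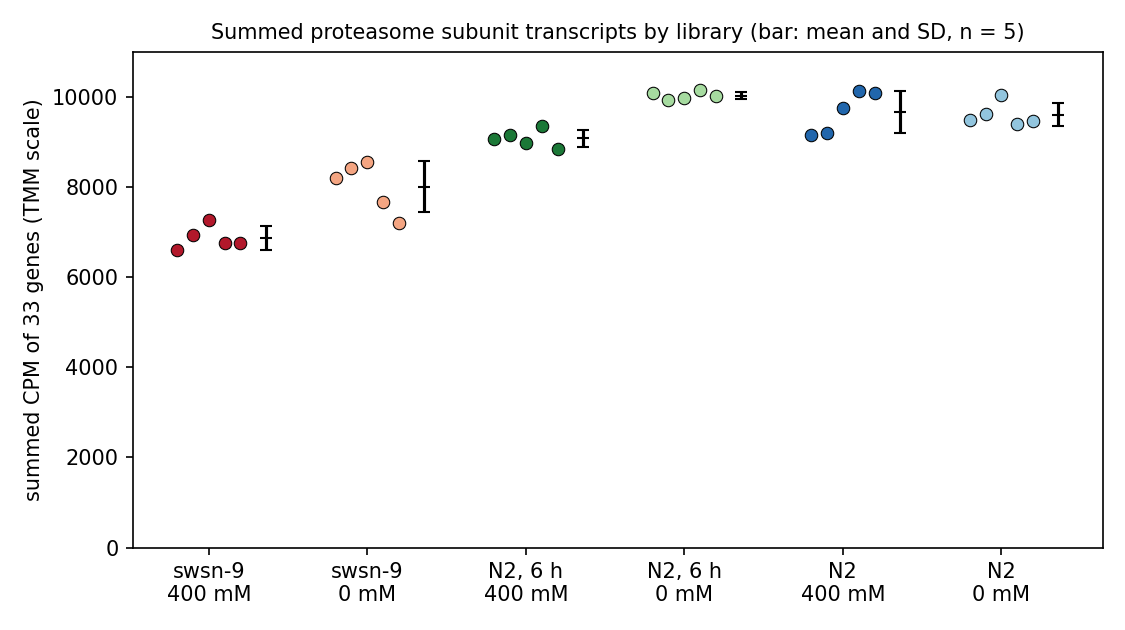
Summed CPM (TMM scale) of the 33 subunit genes in each library, with the mean and SD of 5 libraries beside each group. Mutant libraries at 400 mM lie between 6590 and 7274 CPM, and the lowest N2 library lies at 8848 CPM.

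In swsn-9 mutants, transcripts for nearly the whole particle were slightly lower after ethanol. Transcripts of 31 of the 33 genes fell and none rose, while 24.3% of all genes were called, 10.1% higher and 14.3% lower (edgeR's quasi-likelihood test, Benjamini-Hochberg adjusted p under 0.05). The median log2 fold change of the 33 genes was −0.23, against −0.01 over all genes tested. Among the 3419 genes with a mean count of at least 1000, the range in which 32 of the 33 genes lie, 35.7% were called and the median was −0.09. The largest decrease was that of rpn-5, by 0.35 on the log2 scale, and the 2 genes that did not pass were rpn-2 and rpn-6.2. For 16 genes the libraries at 400 mM all lay below those at 0 mM, against 9.01% of all genes. All 7 alpha, all 7 beta and all 6 ATPase genes fell, as did 3 of 4 other base genes and 8 of 9 lid genes. With library totals and no TMM factors, 17 genes were called, 16 of them lower. The median of the 33 genes lay 0.21 below that of all genes with either scaling. A scaling shifts all genes nearly alike, so this difference could hardly move and is no check of the calls.

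In N2 worms harvested immediately after the same exposure, no proteasome gene passed the test, against 14.4% of all genes. The median log2 fold change was 0.01, the values ran from −0.10 (rpn-5) to 0.11 (rpt-3), and the smallest adjusted p was 0.143. At an unadjusted p under 0.05 there were 2 genes, rpn-5 and rpt-3, and DESeq2 called none. The median SE was 0.046. No gene had groups that did not overlap, against 8.69% of all genes. With TMM factors taken from genes with a mean count of at least 1000, 2 genes were called higher, and with library totals 1.

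**Figure D3:**
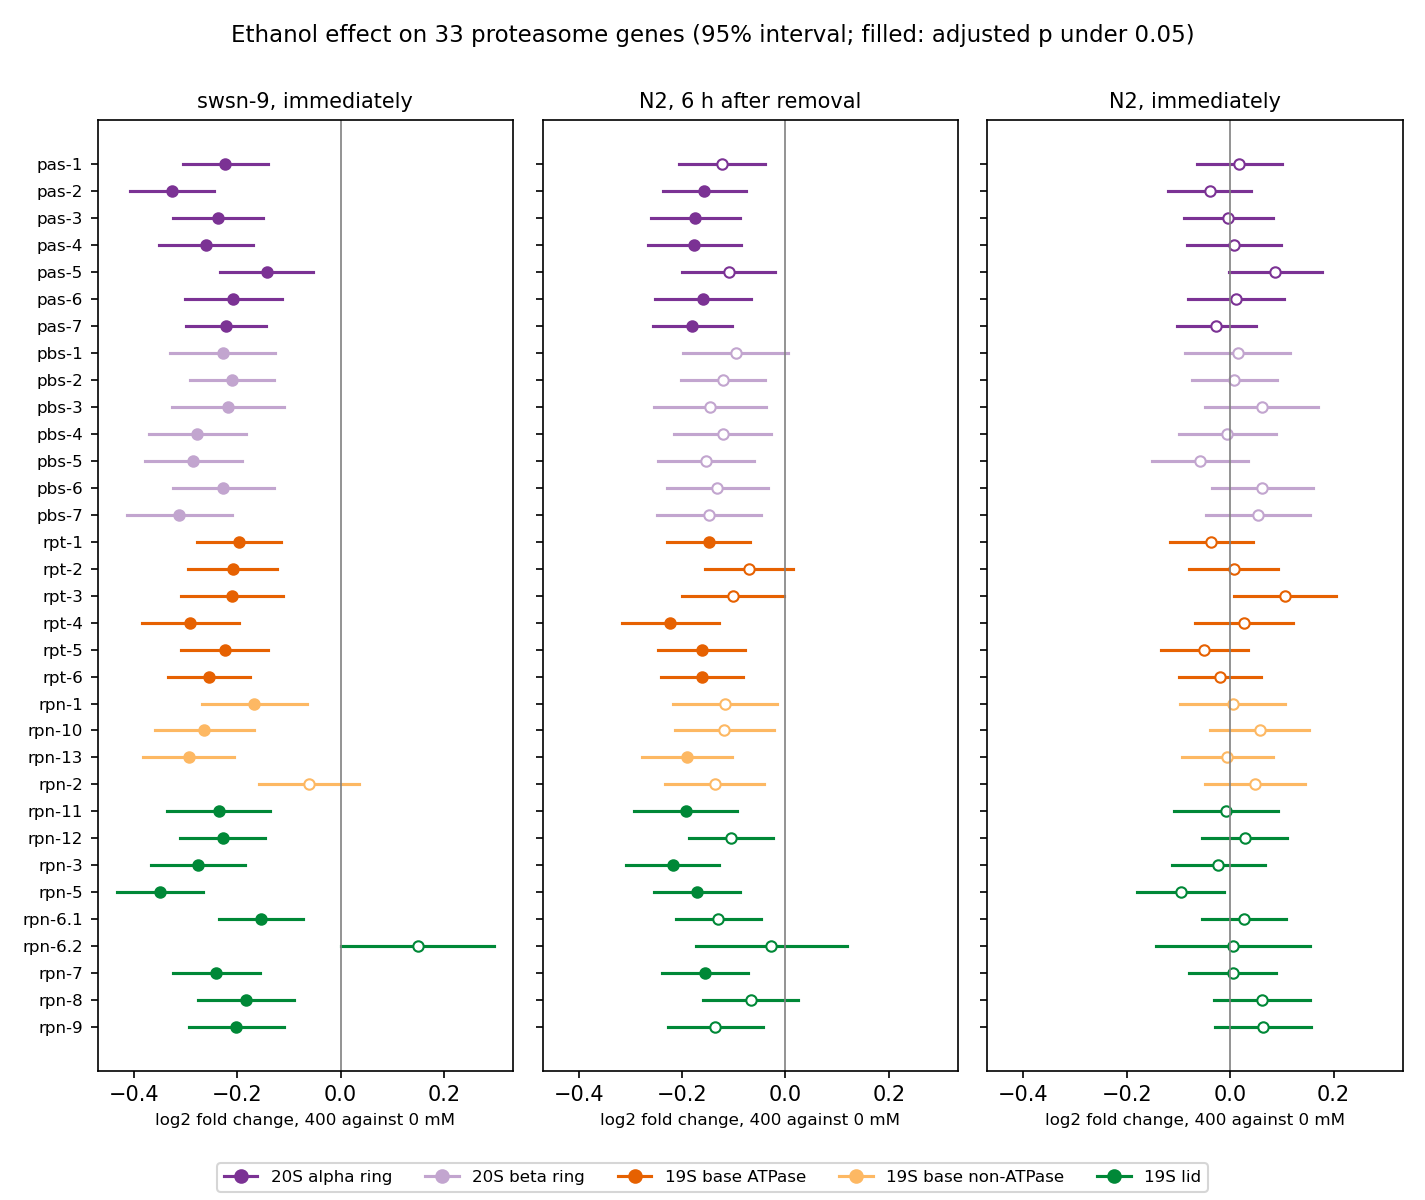
Log2 fold change of 400 against 0 mM ethanol (x axis) for the 33 subunit genes (rows, colored by part of the proteasome) with 95% intervals, in swsn-9 mutants immediately after exposure, in N2 at 6 h and in N2 immediately after exposure. Filled points passed an adjusted p of 0.05: 31 genes in the mutants, 14 in N2 at 6 h and none in N2 immediately after exposure.

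The ethanol effect itself differed between the strains for most of these genes. The interaction of ethanol and genotype was called for 23 of the 33 genes, all with a lower value in mutants, against 4.15% of all genes (2.75% lower) and 6.08% of genes with a mean count of at least 1000. Its median over the 33 genes was −0.24 on the log2 scale, against −0.01 over all genes, and the value was negative for every gene except rpn-6.2. The largest was that of pbs-7, at −0.37, and the genes called were 6 of 7 alpha, 5 of 7 beta, 4 of 6 ATPase, 2 of 4 other base and 6 of 9 lid genes. The count depends on the fit. It was 6 when the libraries of N2 at 6 h were left out and 9 with library totals and no TMM factors, and leaving out single libraries gave 16 to 31. Without replicate 5 of mutants at 0 mM, the library with the lowest sum in its group, 31 genes were called. Cell type markers also moved with ethanol in mutants. Of these, 3 of 5 intestine, 2 of 6 neuron and 1 of 6 germ line markers rose, and 1 of 5 intestine, 3 of 8 oocyte, 2 of 4 epidermal and 1 of 4 muscle markers fell, while none of 7 sperm markers passed in edgeR or DESeq2 (1 at an unadjusted p under 0.05). A single oocyte marker passed the interaction, lower in mutants. Summed intestine markers, mostly the single gene vit-2, were 26127 to 31396 CPM in mutants at 400 mM and 20616 to 28329 CPM in mutants at 0 mM. Summed neuron markers were 319 to 384 CPM at 400 mM and 290.4 to 325 CPM at 0 mM. Summed oocyte markers were 6968 to 7216 CPM in mutants at 400 mM and 6886 to 8452 CPM in mutants at 0 mM. Their part in the result was not tested.

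**Figure D4:**
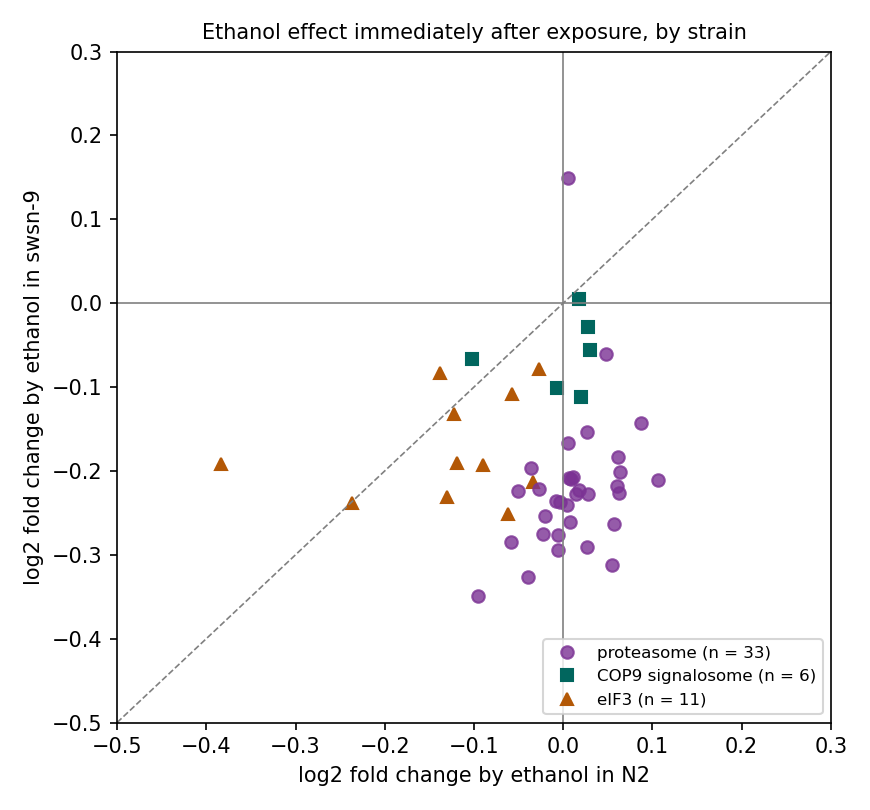
Log2 fold change by ethanol in swsn-9 mutants (y axis) and in N2 (x axis), both harvested immediately, for the 33 proteasome genes, 6 COP9 signalosome genes and 11 eIF3 genes. The dashed line marks equal values, and every proteasome gene lies below it except rpn-6.2.

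At 6 h after removal from ethanol, N2 worms had lower proteasome transcripts than their controls. Of the 33 genes, 14 fell and none rose, whereas 4.88% of all genes were called, 3.41% higher and 1.47% lower. The log2 fold change was negative for all 33 genes, with a median of −0.15 (all genes 0.01), and 22 genes had groups that did not overlap, against 2.76% of all genes in that direction. The genes called were 5 of 7 alpha, 4 of 6 ATPase, 1 of 4 other base and 4 of 9 lid genes. None of the 7 beta genes passed in edgeR, 6 of them had an unadjusted p under 0.05, and DESeq2 called 6. Over all 33, an unadjusted p under 0.05 was found for 28. All 14 genes were also among the 31 of 33 that fell in mutants, an overlap that so high a number largely fixes in advance. DESeq2 called 25 genes lower, against 7.3% of all genes called in either direction. Without replicate 5 of N2 at 400 mM and 6 h the count in edgeR was 5. Without replicate 1 of that group, the library with the lowest TMM factor, it was 15. With TMM factors from genes with a mean count of at least 1000 it was also 15. The median was then −0.10, beside 0.06 over all genes. In the same comparison 2 of 5 intestine markers rose (DESeq2 called 3 higher and 1 lower), as did 1 of 8 oocyte markers, and 1 of 6 germ line markers fell. Most of the summed intestine markers is 1 gene, vit-2, with a mean count of 414435 against 5144 for the next, act-5. The summed markers did not overlap, at 24819 to 29202 CPM at 400 mM and 21868 to 24142 CPM at 0 mM. Their part in the result was not tested.

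The difference between the ethanol effect at 6 h and that immediately after exposure was called for 1 gene, rpt-4, against 6.28% of all genes (2.48% lower). All 33 values were negative, with a median of −0.16, and 22 had an unadjusted p under 0.05, given here without the share over all genes. The count called depends on the fit. It was 8 in the fit that blocks on replicate number, 9 in DESeq2, 11 with TMM factors from genes with a mean count of at least 1000 and 17 with library totals. Leaving out replicate 1 of N2 at 400 mM gave 15. Counts of 4 to 7 came without replicate 4 or 1 of N2 at 400 mM and 6 h (7 and 5), replicate 2 or 3 of N2 at 0 mM and 6 h (6 and 4), replicate 2 of N2 at 400 mM (5) or replicate 3 of N2 at 0 mM (4), and the lowest counts were 1 and 2.

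Against wild type, the mutants had lower proteasome transcripts with and without ethanol. At 0 mM, all 33 genes were lower in mutants, but 45.5% of all genes (22.3% lower) and 74.9% of genes with a mean count of at least 1000 were called. The median log2 fold change was −0.25, against 0.06 over all genes and −0.19 over genes with a mean count of at least 1000. At 400 mM, 32 genes were lower, against 52.4% of all genes (25.6% lower), with a median of −0.50 (all genes 0.14, genes with a mean count of at least 1000 −0.24), and rpn-6.2 did not pass. Mutant and N2 libraries did not overlap for 30 genes at 0 mM and for 32 at 400 mM, against 15% and 19.2% of all genes in that direction. These counts and medians moved with the scaling. TMM factors from genes with a mean count of at least 1000 raised the median of all genes by 0.17 at 0 mM and by 0.22 at 400 mM, and then 18 and 32 genes were called. Library totals gave 11 and 32 genes. Relative to the median of all genes, the 33 genes lay 0.31 lower at 0 mM in the first fit and 0.32 lower in both others. This difference is nearly fixed under any scaling and is no check of the calls. Whole worms were sequenced, so fewer cells of a type and less RNA per cell cannot be told apart. All 6 germ line markers and 7 of 8 oocyte markers were also lower in mutants at 0 mM, and all 6 neuron, 3 of 4 epidermal, 2 of 4 muscle, 2 of 5 intestine and 1 of 8 oocyte markers were higher. At 0 mM, summed germ line markers were 2308 to 2622 CPM in mutants and 3398 to 3567 CPM in N2. Summed oocyte markers were 6886 to 8452 CPM in mutants and 9163 to 10748 CPM in N2, and summed neuron markers were 290.4 to 325 CPM in mutants and 234.8 to 253 CPM in N2. Their part in the result was not tested.

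In N2, the times differed by 6 h on seeded plates after a transfer, per the paper, and are not stated to share collection days. Time, transfer and day therefore cannot be told apart. At 0 mM, none of the 33 genes passed between 6 h and immediately, against 19.5% of all genes. Of the 33, 6 had an unadjusted p below 0.05, given here without the share over all genes. The median log2 fold change of the 33 was 0.06, and the values were positive for 30 genes. DESeq2 called 3 genes higher, against 21.2% of all genes called in either direction. Leaving out single libraries gave up to 4 genes, the highest without replicate 3 of N2 at 0 mM and 6 h. With ethanol, 10 genes were lower at 6 h than immediately after exposure, against 25.7% of all genes (14.4% lower), and the median was −0.09. These were 5 alpha, 2 beta, 1 ATPase and 2 lid genes. The count was 5 without replicate 4 or 5 of N2 at 400 mM or without replicate 5 of N2 at 400 mM and 6 h, 6 without replicate 2 of N2 at 400 mM and 6 h, and 26 with TMM factors from genes with a mean count of at least 1000. The comparison at 6 h, that of times and that of strains share libraries, so their values are not independent. Markers moved between the times as well. At 400 mM, where members were called, all 7 sperm, 3 of 6 germ line and 2 of 5 intestine markers were lower at 6 h and 4 of 8 oocyte markers higher, with 1 neuron marker lower and 1 epidermal marker in each direction. Summed sperm markers at 400 mM were 0.243 to 0.934 CPM at 6 h and 6.28 to 36.3 CPM immediately, and summed oocyte markers were 10035 to 11535.5 CPM at 6 h and 8936 to 10179.6 CPM immediately. At 0 mM, all 7 sperm, 3 of 5 intestine and 2 of 6 germ line markers were lower at 6 h and all 8 oocyte markers higher, with 1 muscle, 1 neuron and 1 epidermal marker lower. Summed sperm markers at 0 mM were 0.187 to 12.5 CPM at 6 h and 7.06 to 41.5 CPM immediately. Their part was not tested.

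**Figure D5:**
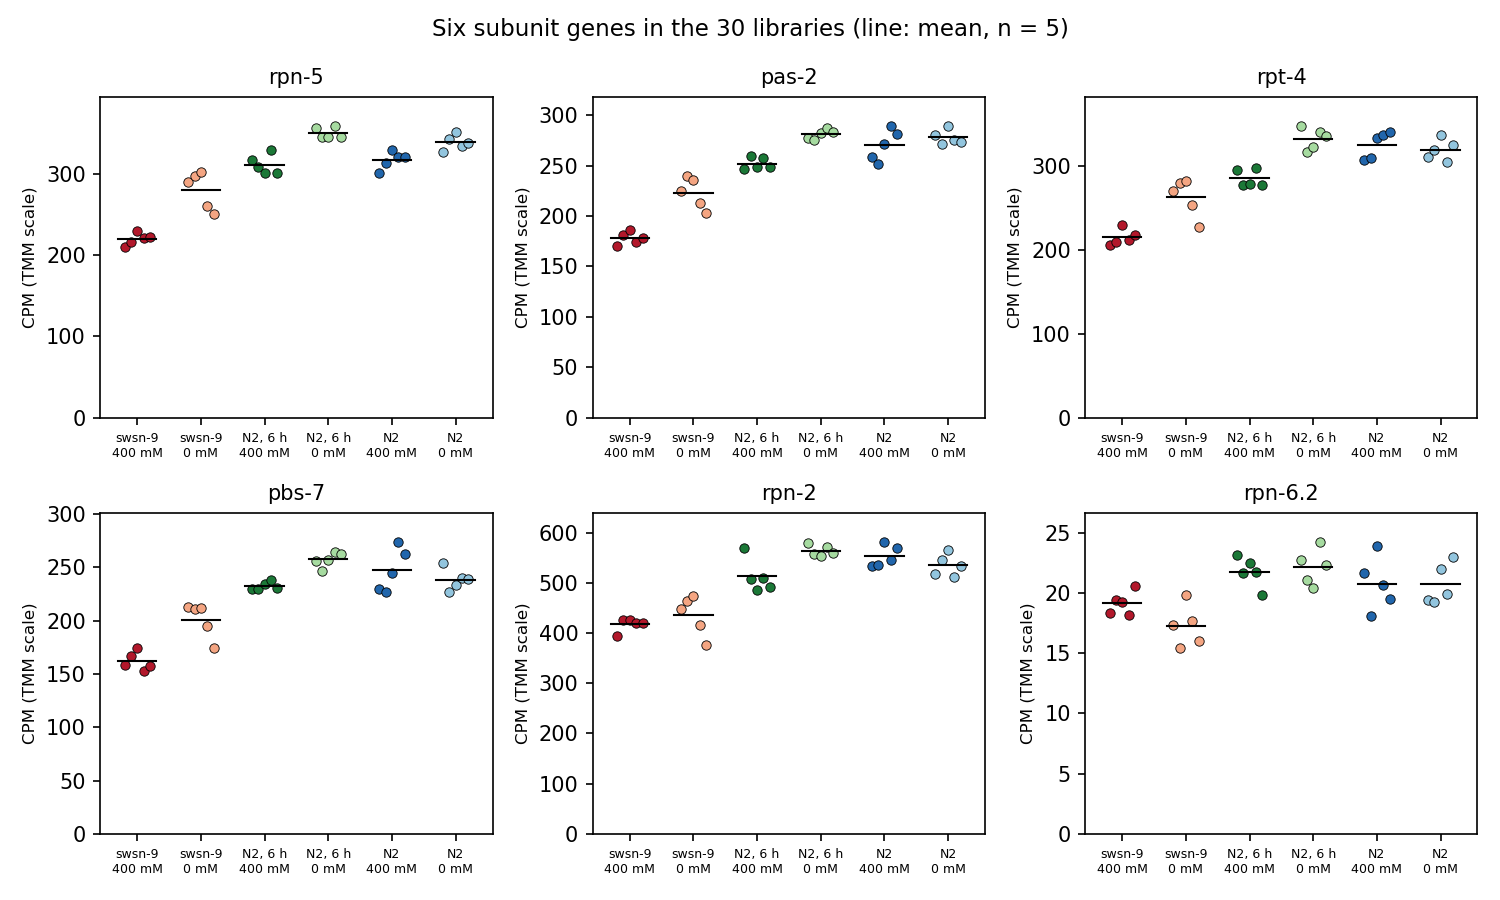
CPM (TMM scale) of 6 subunit genes in the 30 libraries, with a line at the mean of 5 libraries. Mutant libraries at 400 mM lie below those at 0 mM without overlap for rpn-5, pas-2 and pbs-7, while both groups overlap for rpt-4, rpn-2 and rpn-6.2.

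Among the alpha subunits, pas-2 had the smallest p in the strain comparison at 0 mM. pas-2 had 169.8, 181, 186, 174 and 178 CPM in mutants at 400 mM and 224, 239, 235.3, 212 and 203 CPM in mutants at 0 mM. For pas-2 in N2 at 6 h, the values were 247, 259, 248, 257 and 248 CPM at 400 mM and 277, 275, 282, 287 and 283 CPM at 0 mM. For pas-2 in N2 immediately after exposure, they were 258, 252, 271, 289 and 281 CPM at 400 mM and 280.2, 272, 289.5, 275 and 274 CPM at 0 mM. No mutant library reached the N2 range, and the ethanol groups overlapped only in N2 immediately after exposure. With ethanol, pas-2 had log2 fold changes of −0.33 (SE 0.041, adjusted p = 6.35e-07) in mutants, −0.16 (SE 0.041, adjusted p = 0.0207) in N2 at 6 h and −0.04 (SE 0.041, adjusted p = 0.617) in N2 immediately after exposure. For pas-2, the mutant effect minus that in N2 was −0.29 (SE 0.058, adjusted p = 0.00305).

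The most abundant subunit gene per kb was pas-3. pas-3 had 226, 231, 253, 227 and 234 CPM in mutants at 400 mM and 271, 290.5, 298, 266 and 255 CPM in mutants at 0 mM. For pas-3 in N2 at 6 h, the values were 279.7, 303, 299, 303 and 285 CPM at 400 mM and 325, 332, 329, 337 and 337 CPM at 0 mM. For pas-3 in N2 immediately after exposure, they were 316, 319, 328, 369 and 338 CPM at 400 mM and 325, 334, 356, 327 and 333 CPM at 0 mM. Every exposed mutant library was below every unexposed one, as were the N2 libraries at 6 h. With ethanol, pas-3 had log2 fold changes of −0.24 (SE 0.044, adjusted p = 0.000183) in mutants, −0.17 (SE 0.044, adjusted p = 0.0164) in N2 at 6 h and 0.00 (SE 0.044, adjusted p = 0.977) in N2 immediately after exposure. The alpha gene pas-4 was the other one named for its strain difference at 0 mM. pas-4 had 146, 152, 167, 147 and 153 CPM in mutants at 400 mM and 186, 193, 201, 177 and 160.2 CPM in mutants at 0 mM. For pas-4 in N2 at 6 h, the values were 201, 203, 208, 215 and 203 CPM at 400 mM and 235.2, 235.4, 226, 233 and 234 CPM at 0 mM. For pas-4 in N2 immediately after exposure, they were 214, 231, 233, 241 and 242 CPM at 400 mM and 226, 237, 241, 227 and 226 CPM at 0 mM. Replicate 5 of mutants at 0 mM fell inside the range of the exposed mutants, and the N2 groups at 6 h did not overlap. With ethanol, pas-4 had log2 fold changes of −0.26 (SE 0.046, adjusted p = 9.90e-05) in mutants, −0.18 (SE 0.046, adjusted p = 0.0202) in N2 at 6 h and 0.01 (SE 0.046, adjusted p = 0.95) in N2 immediately after exposure. For pas-4, the mutant effect minus that in N2 was −0.27 (SE 0.065, adjusted p = 0.0129). With library totals this interaction did not pass for pas-4 (adjusted p = 0.0699) or for pas-3 (adjusted p = 0.183), which had passed with TMM. The other alpha genes had log2 fold changes in mutants of −0.22 (pas-1), −0.14 (pas-5), −0.21 (pas-6) and −0.22 (pas-7), all called. At 6 h in N2, pas-6 and pas-7 passed at −0.16 and −0.18, and pas-1 and pas-5 did not, at −0.12 and −0.11.

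The beta subunits with peptidase sites are pbs-1 (caspase-like), pbs-2 (trypsin-like) and pbs-5 (chymotrypsin-like), named from their yeast and mammalian counterparts. pbs-1 had 206, 219, 238, 208 and 212 CPM in mutants at 400 mM and 256, 264, 267, 242 and 239 CPM in mutants at 0 mM. For pbs-1 in N2 at 6 h, the values were 258, 292, 287, 296 and 261 CPM at 400 mM and 285, 309.9, 301, 289.6 and 304 CPM at 0 mM. For pbs-1 in N2 immediately after exposure, they were 285, 285, 288, 339 and 307 CPM at 400 mM and 279, 313, 315, 293 and 289.9 CPM at 0 mM. Ethanol-exposed mutants were below unexposed ones in every library, by a narrow margin. With ethanol, pbs-1 had log2 fold changes of −0.23 (SE 0.052, adjusted p = 0.00155) in mutants, −0.10 (SE 0.052, adjusted p = 0.304) in N2 at 6 h and 0.01 (SE 0.052, adjusted p = 0.913) in N2 immediately after exposure. pbs-2 had 159.6, 173, 179, 166 and 166 CPM in mutants at 400 mM and 206, 199, 203, 187 and 181 CPM in mutants at 0 mM. For pbs-2 in N2 at 6 h, the values were 213, 224, 222, 233 and 215 CPM at 400 mM and 244, 244, 245, 228 and 242 CPM at 0 mM. For pbs-2 in N2 immediately after exposure, they were 219.9, 217, 232, 239.9 and 243 CPM at 400 mM and 223, 236, 238, 225 and 224 CPM at 0 mM. The mutant groups did not overlap, whereas N2 groups overlapped at both times. With ethanol, pbs-2 had log2 fold changes of −0.21 (SE 0.042, adjusted p = 0.000362) in mutants, −0.12 (SE 0.041, adjusted p = 0.0876) in N2 at 6 h and 0.01 (SE 0.042, adjusted p = 0.938) in N2 immediately after exposure. pbs-5 had 208, 213, 236, 211 and 218 CPM in mutants at 400 mM and 270.4, 288, 272, 248 and 244 CPM in mutants at 0 mM. For pbs-5 in N2 at 6 h, the values were 275, 307, 296, 305 and 293 CPM at 400 mM and 321, 330.2, 328, 325 and 337 CPM at 0 mM. For pbs-5 in N2 immediately after exposure, they were 278, 288, 302, 326 and 311 CPM at 400 mM and 326, 316, 329.6, 303 and 293 CPM at 0 mM. The groups were apart in mutants and in N2 at 6 h, although the N2 effect missed the threshold. With ethanol, pbs-5 had log2 fold changes of −0.28 (SE 0.048, adjusted p = 4.84e-05) in mutants, −0.15 (SE 0.048, adjusted p = 0.0561) in N2 at 6 h and −0.06 (SE 0.048, adjusted p = 0.493) in N2 immediately after exposure. Blocking on replicate number, pbs-5 passed at 6 h (adjusted p = 0.0433), and the interaction with genotype passed for pbs-1 (adjusted p = 0.0231) and pbs-5 (adjusted p = 0.0446). With library totals, the effect in mutants did not pass for pbs-1 (adjusted p = 0.101) or pbs-2 (adjusted p = 0.0651). The interaction of pbs-2 with genotype, which passed with TMM, was lost as well (adjusted p = 0.177).

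Of the beta subunits without a peptidase site, pbs-7 had the largest interaction of ethanol and genotype. pbs-7 had 158, 167, 174, 153 and 158 CPM in mutants at 400 mM and 213, 211, 212, 195 and 174 CPM in mutants at 0 mM. For pbs-7 in N2 at 6 h, the values were 229.9, 229, 234, 238 and 231 CPM at 400 mM and 256, 247, 257, 264 and 263 CPM at 0 mM. For pbs-7 in N2 immediately after exposure, they were 229.7, 227, 245, 274 and 263 CPM at 400 mM and 254, 227, 234, 240.1 and 239 CPM at 0 mM. Exposed mutants ranged from 153 to 174 CPM, with replicate 5 at 0 mM just above, and N2 replicates 4 and 5 at 400 mM were above all N2 controls. With ethanol, pbs-7 had log2 fold changes of −0.31 (SE 0.052, adjusted p = 4.04e-05) in mutants, −0.15 (SE 0.051, adjusted p = 0.0925) in N2 at 6 h and 0.05 (SE 0.051, adjusted p = 0.575) in N2 immediately after exposure. In the fit with the block, pbs-7 passed at 6 h (adjusted p = 0.0342) and in the interaction with time (adjusted p = 0.0432). Its annotation shares 70 bases of exon with K07A12.5 on the same strand, a gene with a mean count of 54.8 against 3623 for pbs-7. The other beta genes, pbs-3, pbs-4 and pbs-6, fell in mutants by 0.22, 0.28 and 0.23 on the log2 scale, and had values of −0.15, −0.12 and −0.13 at 6 h in N2 that did not pass.

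The ATPase gene rpt-4 was the only member called in both interactions. rpt-4 had 206, 209, 229, 212 and 217 CPM in mutants at 400 mM and 270.2, 280.0, 282, 253 and 227 CPM in mutants at 0 mM. For rpt-4 in N2 at 6 h, the values were 295, 277, 278, 297 and 278 CPM at 400 mM and 348, 316, 323, 340.2 and 336 CPM at 0 mM. For rpt-4 in N2 immediately after exposure, they were 307, 309, 333, 336 and 340.0 CPM at 400 mM and 310.4, 319, 337, 305 and 325 CPM at 0 mM. In mutants the groups overlapped through replicate 5 at 0 mM and replicate 3 at 400 mM, and in N2 they were apart at 6 h. With ethanol, rpt-4 had log2 fold changes of −0.29 (SE 0.048, adjusted p = 4.17e-05) in mutants, −0.22 (SE 0.048, adjusted p = 0.00466) in N2 at 6 h and 0.03 (SE 0.048, adjusted p = 0.799) in N2 immediately after exposure. For rpt-4, the mutant effect minus that in N2 was −0.32 (SE 0.068, adjusted p = 0.00499). The difference between the effects at 6 h and immediately after exposure was −0.25 (SE 0.068, adjusted p = 0.0208). Over all alternatives of that difference, the adjusted p of rpt-4 ran from 0.000415 to 0.0484. rpt-4 shares 103 bases of exon with rpoa-49 on the opposite strand, and the strand setting of the counts is not given in the sources used here. The 5 other ATPase genes fell in mutants by 0.20 (rpt-1) to 0.25 (rpt-6) on the log2 scale. At 6 h in N2, rpt-1, rpt-5 and rpt-6 passed at −0.15, −0.16 and −0.16, while rpt-2 and rpt-3 had −0.07 and −0.10.

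In the base, rpn-10 encodes a ubiquitin receptor. rpn-10 had 139, 154, 156, 148 and 151 CPM in mutants at 400 mM and 186, 187, 192, 173 and 159.5 CPM in mutants at 0 mM. For rpn-10 in N2 at 6 h, the values were 211, 206, 192, 218 and 189 CPM at 400 mM and 217, 227, 211, 226 and 221 CPM at 0 mM. For rpn-10 in N2 immediately after exposure, they were 196, 206, 209.5, 220.0 and 228 CPM at 400 mM and 205, 199, 217, 198 and 200.1 CPM at 0 mM. Exposed mutants lay just below unexposed ones, with 156 as the highest and 159.5 as the lowest value, and the N2 groups overlapped at both times. With ethanol, rpn-10 had log2 fold changes of −0.26 (SE 0.049, adjusted p = 0.000177) in mutants, −0.12 (SE 0.049, adjusted p = 0.168) in N2 at 6 h and 0.06 (SE 0.049, adjusted p = 0.524) in N2 immediately after exposure. For rpn-10, the mutant effect minus that in N2 was −0.32 (SE 0.069, adjusted p = 0.00536). An exon of B0205.12 on the opposite strand covers 32 bases of it. The other receptor gene, rpn-13, fell by 0.29 in mutants and by 0.19 at 6 h in N2 on the log2 scale, and its interaction with genotype was −0.29 (adjusted p = 0.0059).

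Of the scaffold genes of the base, rpn-1 fell by 0.17 on the log2 scale in mutants, and rpn-2, named after its values were seen, did not pass. rpn-2 had 395, 427, 427, 420.2 and 421 CPM in mutants at 400 mM and 449, 465, 474, 417 and 377 CPM in mutants at 0 mM. For rpn-2 in N2 at 6 h, the values were 569, 509, 487, 509.6 and 493 CPM at 400 mM and 580.4, 557, 553, 572 and 559.8 CPM at 0 mM. For rpn-2 in N2 immediately after exposure, they were 533, 536, 581.8, 545 and 569 CPM at 400 mM and 518, 547, 565, 511 and 534 CPM at 0 mM. Replicate 5 of mutants at 0 mM lay below all exposed mutants and replicate 4 within their range. With ethanol, rpn-2 had log2 fold changes of −0.06 (SE 0.049, adjusted p = 0.379) in mutants, −0.14 (SE 0.049, adjusted p = 0.104) in N2 at 6 h and 0.05 (SE 0.049, adjusted p = 0.608) in N2 immediately after exposure. The interval of the effect in mutants ran from −0.16 to 0.03, and without replicate 5 of mutants at 0 mM the adjusted p was 0.0227 (log2 fold change −0.14). Under the replicate block, rpn-2 passed at 6 h in N2 (adjusted p = 0.0419). Relative to N2 at 0 mM, rpn-2 was lower in mutants by 0.29 on the log2 scale.

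In the lid, rpn-5 had the smallest p in mutants. rpn-5 had 210.0, 216, 229.8, 221 and 222 CPM in mutants at 400 mM and 290.3, 298, 302, 260.1 and 250.3 CPM in mutants at 0 mM. For rpn-5 in N2 at 6 h, the values were 317, 308, 302, 329 and 301 CPM at 400 mM and 356, 346, 346, 359 and 345 CPM at 0 mM. For rpn-5 in N2 immediately after exposure, they were 301, 313, 329.5, 320.3 and 321 CPM at 400 mM and 327, 343, 351, 334 and 338 CPM at 0 mM. The mutant groups and the N2 groups at 6 h were apart, and in N2 immediately after exposure 4 of 5 exposed libraries lay below all controls. With ethanol, rpn-5 had log2 fold changes of −0.35 (SE 0.043, adjusted p = 3.64e-07) in mutants, −0.17 (SE 0.043, adjusted p = 0.0143) in N2 at 6 h and −0.10 (SE 0.043, adjusted p = 0.143) in N2 immediately after exposure. For rpn-5, the mutant effect minus that in N2 was −0.25 (SE 0.060, adjusted p = 0.0112). rpn-3 had the smallest p at 6 h in N2. rpn-3 had 269, 298, 308, 292 and 287 CPM in mutants at 400 mM and 361, 379, 382, 332 and 305 CPM in mutants at 0 mM. For rpn-3 in N2 at 6 h, the values were 405, 388, 382, 410.2 and 396 CPM at 400 mM and 468, 441, 458, 477 and 461 CPM at 0 mM. For rpn-3 in N2 immediately after exposure, they were 416, 428, 437, 427 and 447 CPM at 400 mM and 435, 432, 459.6, 434 and 429.9 CPM at 0 mM. The N2 libraries at 6 h did not overlap, and in mutants 1 exposed library lay above the lowest control. With ethanol, rpn-3 had log2 fold changes of −0.28 (SE 0.046, adjusted p = 4.99e-05) in mutants, −0.22 (SE 0.046, adjusted p = 0.00388) in N2 at 6 h and −0.02 (SE 0.046, adjusted p = 0.823) in N2 immediately after exposure. For rpn-3, the mutant effect minus that in N2 was −0.25 (SE 0.065, adjusted p = 0.0202). The replicate block put the interaction of rpn-3 with time past the threshold (adjusted p = 0.0307). Without the libraries of N2 at 6 h, the interaction with genotype did not pass for rpn-5 (adjusted p = 0.0523) or rpn-3 (adjusted p = 0.0768).

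rpn-11 encodes the deubiquitinase of the lid. rpn-11 had 169, 179, 192, 176 and 171 CPM in mutants at 400 mM and 219.9, 222, 216, 190.5 and 195 CPM in mutants at 0 mM. For rpn-11 in N2 at 6 h, the values were 215, 229, 226, 244 and 223 CPM at 400 mM and 244, 262, 263, 264 and 266 CPM at 0 mM. For rpn-11 in N2 immediately after exposure, they were 219.8, 227, 246, 269.8 and 255 CPM at 400 mM and 237, 253, 255, 239 and 242 CPM at 0 mM. The groups touched in mutants and at 6 h, with a single library of each inside the other's range. With ethanol, rpn-11 had log2 fold changes of −0.24 (SE 0.051, adjusted p = 0.000986) in mutants, −0.19 (SE 0.051, adjusted p = 0.0224) in N2 at 6 h and −0.01 (SE 0.051, adjusted p = 0.949) in N2 immediately after exposure. Under the replicate block its interaction with genotype passed (adjusted p = 0.0355). An exon of pqn-48 on the opposite strand overlaps rpn-11 by 16 bases. rpn-6.1 encodes the subunit that joins lid and core, known in worms for raising stress resistance when overexpressed. rpn-6.1 had 197, 197, 206, 204 and 196 CPM in mutants at 400 mM and 228, 242, 231, 217 and 193 CPM in mutants at 0 mM. For rpn-6.1 in N2 at 6 h, the values were 265, 257, 257, 265 and 252 CPM at 400 mM and 289.9, 283, 287, 283 and 276 CPM at 0 mM. For rpn-6.1 in N2 immediately after exposure, they were 262, 258, 278, 261 and 284 CPM at 400 mM and 265, 262, 273, 261 and 256 CPM at 0 mM. Replicate 5 of mutants at 0 mM was below all exposed mutants, and the N2 groups at 6 h did not overlap. With ethanol, rpn-6.1 had log2 fold changes of −0.15 (SE 0.042, adjusted p = 0.00727) in mutants, −0.13 (SE 0.042, adjusted p = 0.0666) in N2 at 6 h and 0.03 (SE 0.042, adjusted p = 0.77) in N2 immediately after exposure. The block also put rpn-6.1 past the threshold at 6 h (adjusted p = 0.0417). With library totals, the effect in mutants did not pass for rpn-11 (adjusted p = 0.0634) or rpn-6.1 (adjusted p = 0.22). Fitted on the mutant libraries alone, the adjusted p was 0.0798 for rpn-6.1.

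Its paralog rpn-6.2 was the only subunit gene with a positive value in exposed mutants. rpn-6.2 had 18.3, 19.4, 19.3, 18.2 and 20.5 CPM in mutants at 400 mM and 17.4, 15.4, 19.9, 17.7 and 16.0 CPM in mutants at 0 mM. For rpn-6.2 in N2 at 6 h, the values were 23.2, 21.6, 22.5, 21.8 and 19.9 CPM at 400 mM and 22.7, 21.1, 20.4, 24.2 and 22.3 CPM at 0 mM. For rpn-6.2 in N2 immediately after exposure, they were 21.7, 18.1, 23.9, 20.7 and 19.5 CPM at 400 mM and 19.4, 19.3, 22.0, 19.9 and 23.01 CPM at 0 mM. Groups overlapped in all 3 comparisons. With ethanol, rpn-6.2 had log2 fold changes of 0.15 (SE 0.075, adjusted p = 0.148) in mutants, −0.03 (SE 0.074, adjusted p = 0.88) in N2 at 6 h and 0.01 (SE 0.076, adjusted p = 0.977) in N2 immediately after exposure. The interval of the effect in mutants lay at 0.00 to 0.30, with an unadjusted p of 0.0566 in edgeR's test. At 0 mM, rpn-6.2 was lower in mutants than in N2 by 0.26 on the log2 scale (adjusted p = 0.0053), and at 400 mM the difference of −0.12 did not pass (adjusted p = 0.178). With library totals, the difference at 0 mM did not pass (adjusted p = 0.292), while the increase with ethanol in mutants did (adjusted p = 0.0495). The remaining lid genes fell in mutants by 0.24 (rpn-7), 0.18 (rpn-8), 0.20 (rpn-9) and 0.23 (rpn-12) on the log2 scale, and at 6 h only rpn-7 passed, at −0.16.

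Genes that control or feed the proteasome changed in both directions. The 110 genes tested combined several lists. They were ubiquitin pathway and proteasome-associated genes, 9 genes for SKN-1A and its activation, and 6 genes known to follow SKN-1 under stress. Of the 110, 4 rose and 34 fell in mutants with ethanol. In N2, 1 rose and 3 fell at 6 h, and 8 rose and 13 fell immediately after exposure. Genes called made up 34.5% of the list in mutants, beside 24.3% of all genes. The share was 3.64% in N2 at 6 h, beside 4.88% of all genes, and 19.1% in N2 immediately after exposure, beside 14.4% of all genes. The interaction of ethanol and genotype was called for 2 of the 110, both lower in mutants, or 1.82% beside 4.15% of all genes. Of the 9 genes for SKN-1A and its activation, skn-1 itself had log2 fold changes of −0.03 in mutants, −0.05 in N2 at 6 h and 0.04 in N2 immediately after exposure, none of which passed. ddi-1, the protease that cleaves SKN-1A, had 0.00, −0.09 and 0.05, and png-1, which edits it by removing sugars, had −0.11, −0.04 and −0.10, none of which passed. sel-1, of the pathway that exports SKN-1A from the endoplasmic reticulum, fell in mutants by 0.18 (adjusted p = 0.00124). wdr-23, which targets other SKN-1 forms for degradation, rose by 0.16 in mutants (adjusted p = 0.00711) and by 0.16 in N2 immediately after exposure (adjusted p = 0.00914). Among 6 genes known to follow SKN-1 under stress, aip-1 fell in mutants by 0.25 (adjusted p = 0.00533), and gst-4 rose in N2 immediately after exposure by 0.81 (SE 0.17, adjusted p = 0.00106) with 0.01 in mutants.

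Partners that deliver substrates include shuttles and CDC-48. Of the 19 genes listed, 10 fell in mutants, where 14.3% of all genes were called lower and 35.7% of genes with a mean count of at least 1000 were called, and 3 fell in N2 at 6 h, where 1.47% of all genes were called lower. In N2 immediately after exposure none passed in edgeR or in DESeq2, with 2 at an unadjusted p under 0.05. cdc-48.1, a segregase, had 871, 939.8, 919.6, 872 and 880.0 CPM in mutants at 400 mM and 1127, 1142, 1166, 1012 and 941 CPM at 0 mM, a log2 fold change of −0.27 (SE 0.047, adjusted p = 9.86e-05). cdc-48.2, its paralog, fell by 0.20 in mutants and had an interaction of −0.29 (adjusted p = 0.00888). Of the shuttles, rad-23 fell by 0.21 in mutants (adjusted p = 0.000183) and by 0.14 at 6 h (adjusted p = 0.0295), and ubql-1 had −0.06 and −0.04, neither past the threshold. The ubiquitin gene ubq-1 fell by 0.15 in mutants (adjusted p = 0.0259), ubq-2 had −0.14 (adjusted p = 0.0592), and uba-1, the enzyme that activates ubiquitin, fell by 0.26 (adjusted p = 0.000238).

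Other pathway genes are named for the smallest p in a direction in an ethanol comparison. ubc-8, annotated as an E2 conjugating enzyme, rose by 0.83 in N2 immediately after exposure (SE 0.14, adjusted p = 7.94e-05) and by 0.68 in mutants (adjusted p = 0.000246). The SKP1-family genes skr-21 and skr-4 went in opposite directions in N2, with a decrease of skr-21 immediately after exposure (log2 fold change −1.27, adjusted p = 1.17e-05) and an increase of skr-4 at 6 h (0.83, adjusted p = 0.000911). Of the deubiquitinase genes, ubh-1 rose in mutants by 0.51 (adjusted p = 9.97e-06) and usp-50 fell by 0.33 (adjusted p = 6.8e-05).

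A pair of complexes built on the same plan as the lid, the COP9 signalosome, which acts on cullins, and the translation initiation factor eIF3, was described beside the proteasome. None of the 6 COP9 signalosome genes passed in edgeR in any of the 3 ethanol comparisons, and DESeq2 called 1, lower in mutants. At an unadjusted p under 0.05 there were 2 in mutants, 0 in N2 at 6 h and 1 in N2 immediately after exposure. None passed in the interaction with genotype in either tool, with 1 at an unadjusted p under 0.05 and values from −0.13 to 0.04. At 0 mM, 5 of the 6 COP9 genes were lower in mutants than in N2 (4 in DESeq2), where 45.5% of all genes and 74.9% of genes with a mean count of at least 1000 were called. Of 11 eIF3 genes, 8 fell in mutants and 4 in N2 at 6 h. In mutants, 14.3% of all genes were called lower, and 35.7% of genes with a mean count of at least 1000 were called. At 6 h, 1.47% of all genes were called lower. DESeq2 called 9 and 8 of the eIF3 genes lower in mutants and in N2 at 6 h. In N2 immediately after exposure 4 eIF3 genes fell (5 in DESeq2), beside 14.4% of all genes called in either direction, among them eif-3.J, by 0.38 (adjusted p = 7.44e-06), and eif-3.K fell by 0.17 at 6 h (adjusted p = 0.0158). The interaction with genotype was called for none of the 11 eIF3 genes in either tool, with 3 at an unadjusted p under 0.05 and a median of −0.05. The proteasome genes thus had a median interaction of −0.24 beside −0.07 for COP9 and −0.05 for eIF3 genes, a difference between lists that was not tested.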

How the data were processed

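Whole-worm polyadenylated RNA was sequenced as paired ends. Per the labels and the paper's methods, the authors aligned reads with STAR 2.6.0a, kept reads with 1 alignment and deposited raw counts per gene for 30 libraries. The strand setting and annotation release are not given in the sources used here, and the paper writes WBcel325 for the assembly whose identifiers match WBcel235. Genes with a mean count of at least 1 were tested with edgeR 4.0.16 in R 4.3.3 (TMM, quasi-likelihood F test, 1 fit of 6 group means, Benjamini-Hochberg over 16934 genes, threshold 0.05, no fold cutoff). Standard errors were derived from the F statistic, and 95% intervals are approximate, at log2 fold change ± 1.96 SE. They are somewhat narrower than the F test implies. For rpn-6.2 in mutants and rpt-3 in N2 at 6 h they exclude 0 although that test gave unadjusted p of 0.0566 and 0.0509. CPM is on the TMM scale, and lengths are unions of exons in Ensembl annotation release 115. DESeq2 1.42.0 was an alternative, beside RLE scaling, no filter, fewer libraries and a replicate block. Library totals and TMM factors from genes with a mean count of at least 1000 were added after seeing the data. The test was checked on simulated data.

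The members and gene lists were chosen with earlier results of these data known. Members shown in every library were pbs-1, pbs-2, pbs-5, rpn-6.1, rpn-10, rpn-11, the genes with the highest and lowest level per kb, and the 2 with the smallest p in each direction in the ethanol effects, interactions and the strain difference at 0 mM among those that passed; rpn-2 was added after its values were seen. Pathway genes were 13 chosen regulators and partners and the 2 with the smallest adjusted p in each direction per ethanol effect. Replicates were collected on different days with exposures in parallel, so replicate numbers were taken to pair libraries at 400 and 0 mM of a strain and time, although no source says that a number marks a day. In the comparisons of strains and of times, the block instead used the number across all 30 libraries, a pairing that no source states. Deviations of the paired 400 and 0 mM libraries correlated across genes at a mean of 0.105 over 15 pairs (−0.118 to 0.329, 8 above 0.1). The 60 within-group pairs of libraries held no copies (mean chi-square per gene at least 3.63).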

Additional observations from a re-analysis of the deposited data

Results flagged for a closer look

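A single library lay far from the other 4 of its group in 7 of 96 gene and group combinations checked (gap ratio above 0.71), where chance alone gives about 5%. rpn-2 was low in replicate 1 of mutants at 400 mM, at 395 CPM against 420.2 to 427 CPM, and high in replicate 1 of N2 at 400 mM and 6 h, at 569 CPM against 487 to 509.6 CPM. In N2 at 0 mM and 6 h, pbs-2 was low in replicate 4 (227.9 CPM against 242 to 245 CPM), rpn-11 in replicate 1 (244 CPM against 262 to 266 CPM) and pas-4 in replicate 3 (226 CPM against 233 to 235.4 CPM). In N2 at 0 mM, replicate 3 was high for pas-3 (356 CPM against 325 to 334 CPM) and for rpn-3 (460 CPM against 429.9 to 435 CPM).

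The ethanol effect in mutants minus that in N2 passed the test for pas-2 (−0.29 on the log2 scale), pas-3 (−0.23), pas-4 (−0.27), pbs-2 (−0.22), pbs-7 (−0.37), rpn-3 (−0.25), rpn-5 (−0.25), rpn-10 (−0.32) and rpt-4 (−0.32). Of these, only pas-2, pbs-7, rpn-10 and rpt-4 passed in every alternative. Without the libraries of N2 at 6 h, edgeR's adjusted p was 0.12 for pas-3, 0.0635 for pas-4 and 0.106 for pbs-2. It was then 0.0768 for rpn-3 and 0.0523 for rpn-5. The effect at 6 h minus that immediately after exposure passed for rpt-4 (−0.25).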

How the results depend on the processing

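The direction held in every alternative for every value of the 15 members shown in all libraries that passed the test. Of 2670 alternative values of these members, 2457 stayed on their side of the threshold, 43 lost it and 170 gained it. Counts of genes called moved by more than 1.5 times as follows. For N2 immediately after exposure, 0 genes became 1 with library totals and 2 with TMM factors from genes with a mean count of at least 1000. For N2 at 6 h, 14 became 25 in DESeq2. For mutants, 31 became 17 with library totals. For the interaction with genotype, 23 became 9 with library totals and 6 without the libraries at 6 h. For the interaction with time, 1 became 9 in DESeq2, 3 with RLE scaling, 4 with the 20 wild-type libraries alone, 17 with library totals and 11 with the TMM factors named. For mutants against N2 at 0 mM, 33 became 11 and 18 with these 2 scalings. For 6 h against immediately at 0 mM, 0 became 3 in DESeq2, with RLE scaling and with the 20 wild-type libraries, 7 with the 10 libraries of the comparison, 5 with library totals and 1 with the TMM factors named. At 400 mM, 10 became 18 and 26 with these scalings.

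With the replicate number as a block, the interaction with time had 8 genes in place of 1. The block moved no other count by more than 1.5 times, with 19 for N2 at 6 h, 27 for the interaction with genotype and 31 for mutants. For strains and times, the block joined libraries of the same number across groups not stated to share days. Among the values shown, it added the calls given beside the genes and removed none.

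Leaving out single libraries gave 0 genes for N2 immediately after exposure, 5 to 18 at 6 h, 31 to 32 for mutants, 16 to 31 for the interaction with genotype, 1 to 15 for that with time, 30 to 33 and 32 to 32 for mutants against N2 at 0 and 400 mM, and 0 to 4 and 5 to 13 for 6 h against immediately at 0 and 400 mM. The cause of these changes was not tested. Depth limits rpn-6.2 most, the member with the lowest counts.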
